A study of Mus musculus with 4 samples.

Results

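Transcripts of 33 genes that move glucose into the cell, break it down to lactate or respond to low oxygen were followed in Hepa1-6 cells with reduced Setdb1. Hepa1-6 is a mouse hepatocellular carcinoma line. The genes were chosen by symbol, as transporters, enzymes and hypoxia genes. Of the 33 symbols, 32 matched 33 of the 54838 gene rows, since Aldoa named a second row as well. Of these rows, 31 held enough counts for the test, which covered 12821 genes. Ca9 matched no row, and its mouse counterpart Car9 is described with the other hypoxia genes. Ldhb held 1 count over all libraries. The second Aldoa row held 31 counts and was too low to test.

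RNA sequencing of total RNA compared Hepa1-6 cells carrying an shRNA titled shSet, with the genotype given as Setdb1 knockdown, with cells carrying an shRNA titled shNC, with Setdb1 given as wild type. The series describes both as subclones of the line. Each group held 2 libraries and 1 shRNA title. Whether the libraries of a group are separate cultures is not said in the labels, and the p-values reflect the variation among these 4 libraries alone, part of which could be technical. Oxygen and glucose during culture are not given in the labels, and no hypoxic treatment is named.

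Setdb1, a histone methyltransferase acting on lysine 9 of histone H3, had 10.97 and 8.67 CPM in the shSet libraries, against 51.5 and 58.5 CPM in the shNC libraries (log2 fold change -2.49, edgeR adjusted p = 0.000150). CPM are expected counts per 1000000 counts of a library after edgeR's TMM scaling. The libraries held 19513567 to 19615440 expected counts. Mitochondrially encoded genes took 2.15% and 3.36% of the counts in shSet libraries 1 and 2, against 2.29% and 1.67% in shNC libraries 1 and 2. Of 10 hepatocyte and hepatoma markers 7 exceeded 1 TPM in every library, while Ttr was at 0 counts in both shNC libraries. Of the 8 tested, Alb was called higher (log2 fold change 0.94, edgeR adjusted p = 0.00563) and Apob and Hnf4a lower (log2 fold changes -0.75 and -0.60, edgeR adjusted p = 0.0122 and 0.0302). Summed endothelial markers stayed below 1 TPM, summed leukocyte markers lay between 1.60 and 3.20 TPM, and Cd3e was at 0 throughout. Of 6 fibroblast and stellate markers, Acta2 was at 0 and only Dcn exceeded 1 TPM in every library, with sums, almost wholly Dcn, of 1373 and 1346 TPM in shSet, against 1227 and 1339 TPM in shNC. Col1a1 was called higher, at 60 and 79 counts in the shSet libraries, against 16 and 15 counts in the shNC libraries (log2 fold change 2.17, edgeR adjusted p = 0.00652). The 4 cholangiocyte markers summed to 39.3 and 40.5 TPM in shSet, against 32.8 and 31.9 TPM in shNC. Among them Epcam was called higher (log2 fold change 1.06, edgeR adjusted p = 0.00919), Krt7 and Krt19 were above and Sox9 below the shNC libraries in both shSet libraries, without a call. The part of any of these in the results was not tested.

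Glycolysis converts glucose to pyruvate, and lactate dehydrogenase then turns pyruvate to lactate while restoring the NAD that the pathway consumes. Many of its steps are served by alternative isoenzymes, with liver forms such as Pklr and Slc2a2 in hepatocytes and forms such as Pkm and Slc2a1 in growing or transformed cells. When oxygen is scarce, the HIF factors escape destruction by prolyl hydroxylases and raise transcription of glucose transporters, most glycolytic enzymes, Vegfa and Bnip3. HIF binds DNA through a short core that contains ACGTG or GCGTG.

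The glucose transporter Slc2a3 was the member called higher with Setdb1 knockdown and the angiogenic factor Vegfa the member called lower. Most enzymes had fitted values below the shNC level that missed the threshold. Among the 31 tested members, 1 was higher, 1 was lower and 29 did not pass at an adjusted p of 0.05 in edgeR's quasi-likelihood test. Among all 12821 genes tested, 4.2% were called higher and 1.76% lower, 5.96% in either direction. The 2 of 31 members called were close to that share. Their median log2 fold change was -0.18, against -0.0052 over all genes tested, and 22 of 31 lay below 0, as did 50.5% of all genes tested. At an unadjusted p under 0.05, 9 members were lower and 2 higher, where 9.18% of all genes were lower and 12.1% higher. Both shSet libraries lay below both shNC libraries in 15 of the 31, a pattern held by 25.2% of all tested genes, and above both in 2, a pattern held by 26.4%. In RNA pooled from a culture, fewer cells expressing a gene and less RNA per cell cannot be told apart. An exact permutation of 2 against 2 libraries cannot go below p = 0.3333, so no such test was made of single genes.

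**Figure D1:**
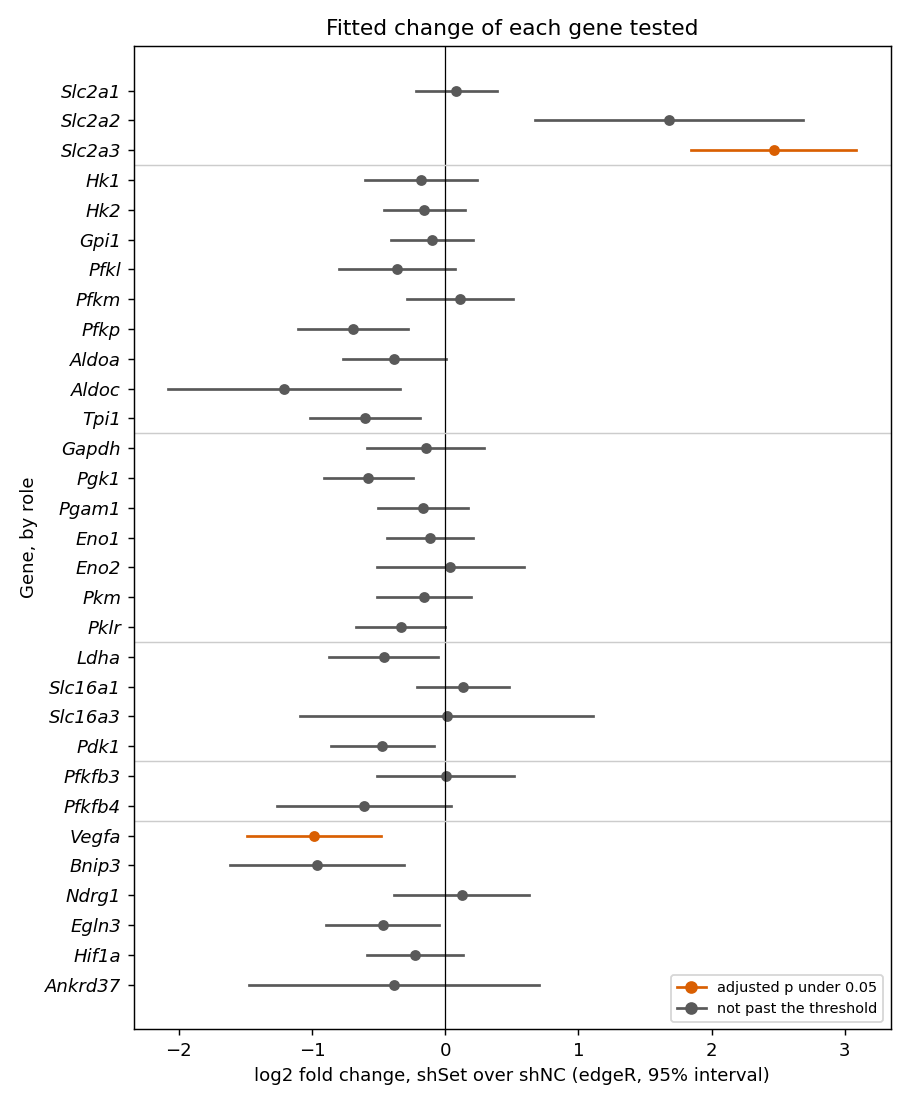
Fitted log2 fold change of shSet over shNC (x axis) for each of the 31 tested genes, ordered by role down the page. Points are edgeR estimates and lines their unadjusted 95% intervals from 2 libraries a group, and the genes in orange, Slc2a3 and Vegfa, had an adjusted p under 0.05.

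Slc2a1, whose protein GLUT1 is the widely expressed basal transporter, was the most abundant of the 3 glucose transporter transcripts among the members. Its level was 97.0 and 91.1 TPM in the shSet libraries, against 97.3 and 86.8 TPM in the shNC libraries. TPM are transcripts per 1000000, scaled for transcript length, and allow levels of different genes to be set side by side. The groups overlapped for Slc2a1 (log2 fold change 0.0831, SE 0.136, edgeR adjusted p = 0.779). The 95% interval of its fold change ran from 0.858 to 1.31.

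Slc2a3 (chromosome 6, 122727809 to 122801640, minus strand, GRCm38) encodes GLUT3, a high-affinity transporter best known from neurons. It had 345 and 296 counts in the shSet libraries, against 41 and 76 counts in the shNC libraries. On the scaled counts this was 17.6 and 15.3 CPM in the shSet libraries, against 2.10 and 3.83 CPM in the shNC libraries. Both shSet libraries were far above both shNC libraries, and the fitted change was 5.52-fold (95% interval 3.59 to 8.48) with log2 fold change 2.46, SE 0.276, edgeR adjusted p = 0.00114. It averaged 16.4 ± 1.65 CPM in shSet cells and 2.97 ± 1.22 CPM in shNC cells (SD, n = 2 each). All of its counts were whole within 0.005, with no division of reads to be seen, and no other gene's exons overlapped its own in the annotation.

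Slc2a2 encodes GLUT2, the low-affinity transporter typical of hepatocytes. It had 28 and 33 counts in the shSet libraries, against 13 and 6 counts in the shNC libraries. Its libraries were separated by group as well, with more counts in shSet, but its change did not pass (log2 fold change 1.68, SE 0.448, edgeR adjusted p = 0.0593). The fitted change was 3.21-fold (95% interval 1.60 to 6.43). Of the summed TPM of the 3 transporters, Slc2a3 made up 5.60% and 5.15% in the shSet libraries, against 0.720% and 1.53% in the shNC libraries. The share of Slc2a1 was 93.3% and 93.6% in the shSet libraries, against 98.7% and 98.2% in the shNC libraries. Summed over the 3 genes, transporter RNA came to 103.9 and 97.3 TPM in the shSet libraries, against 98.6 and 88.4 TPM in the shNC libraries.

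**Figure D2:**
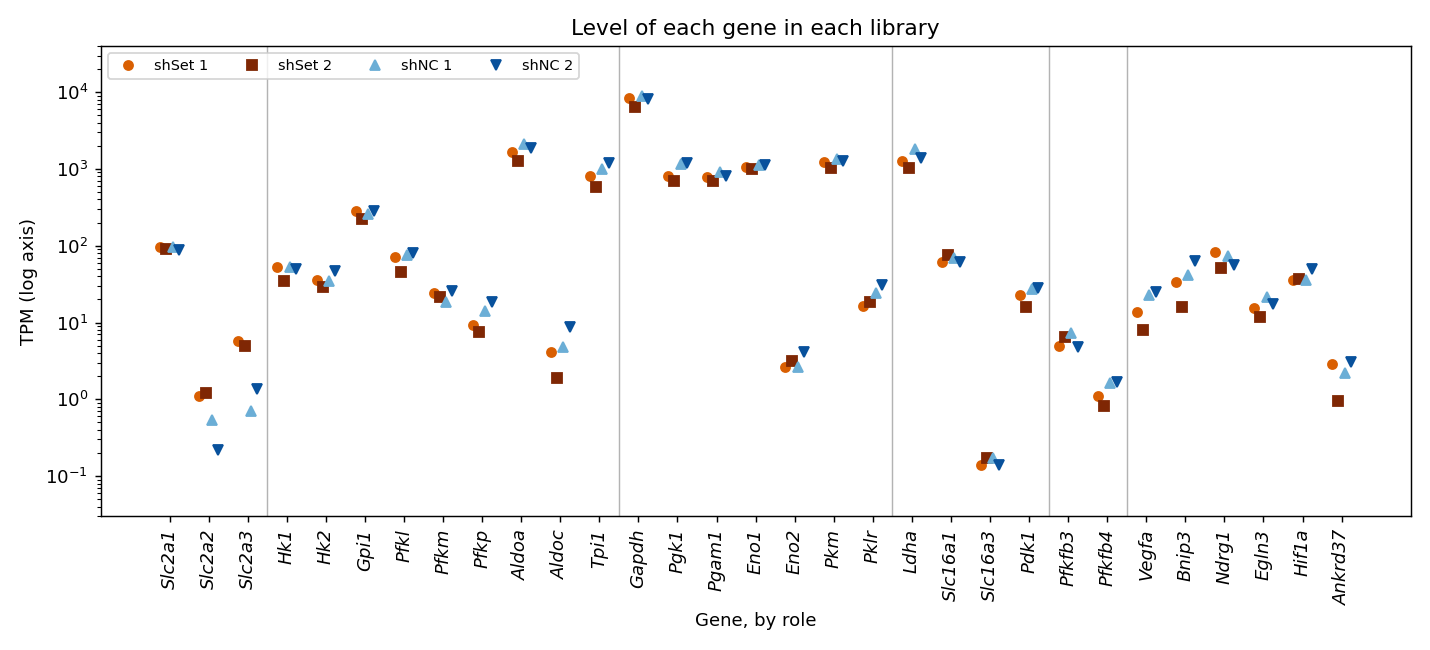
TPM on a log axis (y) of each of the 31 tested genes (x, grouped by role) in the 2 shSet and 2 shNC libraries. Gapdh is the highest gene in every library, at 6447 TPM or more, and Slc16a3 lies at or below 0.17 TPM in all 4.

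In upper glycolysis, from hexokinase to triose phosphate isomerase, 0 of 9 genes passed the test in either direction in edgeR, 3 of them with an unadjusted p under 0.05, while DESeq2 called Pfkp and Tpi1 lower. Their median log2 fold change was -0.36, and 8 of 9 lay below 0. Over all genes tested, 9.18% were lower at an unadjusted p under 0.05, DESeq2 called 2.46% lower, and 50.5% lay below 0. The hexokinases trap glucose as glucose 6-phosphate. Hk1 had 163 and 108 CPM in the shSet libraries, against 161 and 146 CPM in the shNC libraries, and its groups overlapped, with shSet library 1 the highest and library 2 the lowest (log2 fold change -0.18, edgeR adjusted p = 0.637). Hk2, the form linked to tumour growth, had 124 and 110.5 CPM in shSet, against 125 and 137 CPM in shNC, with shSet library 1 within 1 CPM of shNC library 1 (log2 fold change -0.16, edgeR adjusted p = 0.559). Gpi1, which isomerises glucose 6-phosphate, overlapped between groups at 426 and 368 CPM in shSet, against 429.9 and 420.0 CPM in shNC.

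The phosphofructokinases catalyse the committed step, and their subunits behaved unequally. The platelet-type subunit Pfkp had 26.7 and 20.8 CPM in the shSet libraries, against 34.4 and 42.3 CPM in the shNC libraries. Both shSet libraries were below both shNC libraries, though the change missed the threshold (log2 fold change -0.69, SE 0.184, edgeR adjusted p = 0.0590). Its counts were fractional in all 4 libraries, so part of its reads was shared with other features. The liver subunit Pfkl had 196 and 125 CPM in shSet, against 208 and 203 CPM in shNC, where shSet library 2 stood apart from the other 3 (log2 fold change -0.36, edgeR adjusted p = 0.324). The muscle subunit Pfkm overlapped between groups, at 51.9 and 45.7 CPM in shSet, against 38.2 and 52.2 CPM in shNC.

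Below phosphofructokinase, Aldoa, the main aldolase here, had 1656 and 1264 CPM in the shSet libraries, against 2026 and 1777 CPM in the shNC libraries (log2 fold change -0.38, SE 0.173, edgeR adjusted p = 0.243). Both shSet libraries were under both shNC libraries. The brain-type aldolase Aldoc was rarer, with 113 and 44 counts in the shSet libraries, against 138 and 228 counts in the shNC libraries. Its libraries were also separated, with shSet library 2 lowest and shNC library 2 highest, and it had the most negative estimate of the 31 genes without passing (log2 fold change -1.21, SE 0.388, edgeR adjusted p = 0.108). Tpi1, which interconverts the triose phosphates, had 884 and 629 CPM in the shSet libraries, against 1052 and 1240.3 CPM in the shNC libraries (log2 fold change -0.60, SE 0.183, edgeR adjusted p = 0.0947). In Tpi1 too the shSet libraries lay below both shNC libraries, and shSet library 2 was the lower of them.

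In lower glycolysis, where ATP is made, 0 of 7 genes passed in edgeR, 1 of them with an unadjusted p under 0.05, and DESeq2 called Pgk1 lower. The median log2 fold change was -0.16, and 6 of 7 lay below 0. Of all genes tested, 50.5% lay below 0, 9.18% were lower at an unadjusted p under 0.05 and DESeq2 called 2.46% lower. Pgk1 (chromosome X, 106187100 to 106203699, plus strand) encodes phosphoglycerate kinase, the first ATP-forming enzyme of the pathway. It had 1044 and 880.0 CPM in the shSet libraries, against 1434 and 1435 CPM in the shNC libraries. The shNC libraries agreed closely, both shSet libraries were lower, and the change fell just short of the threshold (log2 fold change -0.58, SE 0.148, edgeR adjusted p = 0.0526), at 0.670-fold (95% interval 0.533 to 0.844). Pgk1 counts were fractional in all libraries.

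Gapdh, often used as a reference gene, was the most abundant member, at 8452 and 6447 TPM in the shSet libraries, against 8935 and 8219 TPM in the shNC libraries. It overlapped between groups (log2 fold change -0.15, edgeR adjusted p = 0.722). Its lowest value came from shSet library 2, while shSet library 1 lay between the shNC libraries. Pgam1, the phosphoglycerate mutase, overlapped likewise, at 1012 and 889 CPM in shSet, against 1153 and 984 CPM in shNC.

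Eno1, the main enolase, had 1477 and 1342 CPM in shSet, against 1536 and 1516 CPM in shNC (log2 fold change -0.11, edgeR adjusted p = 0.704). The neuronal enolase Eno2 was near 4 CPM in every library. Pkm, which encodes the muscle-type and embryonic pyruvate kinases, had 2114 and 1799 CPM in shSet, against 2302 and 2065 CPM in shNC (log2 fold change -0.16, edgeR adjusted p = 0.621). For Pkm the groups overlapped, and for Eno1 both shSet libraries were the lower. Pklr, the pyruvate kinase of liver and red cells, had 27.4 and 27.7 CPM in shSet, against 35.4 and 34.3 CPM in shNC, with the groups apart and no call (log2 fold change -0.33, edgeR adjusted p = 0.236). Gapdh, Pgam1, Eno1, Pkm and Pklr had fractional counts in all 4 libraries, and are less certain.

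Summed over the 16 glycolytic enzyme genes above and the 2 lactate dehydrogenase genes, the RNA came to 16600.4 and 13105 TPM in the shSet libraries, against 18919 and 17647 TPM in the shNC libraries. That was 1.66% and 1.31% of all TPM in shSet, against 1.89% and 1.76% in shNC. Both shSet sums were thus below both shNC sums. Gapdh alone gave 50.9% and 49.2% of the sum in the shSet libraries, against 47.2% and 46.6% in the shNC libraries. Of the 17 of these genes that were tested, 0 passed in edgeR, 5 had an unadjusted p under 0.05 and DESeq2 called 3 lower. In 10 both shSet libraries lay below both shNC libraries, a pattern held by 25.2% of all genes tested. All 5 were lower, as were 9.18% of all genes at that p, and DESeq2 called 2.46% of all genes lower.

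Of 4 tested genes that decide the fate of pyruvate, 0 passed in edgeR, 2 of them with an unadjusted p under 0.05, and DESeq2 also called 0. Their median log2 fold change was -0.22. Of all genes tested, 9.18% were lower and 12.1% higher at an unadjusted p under 0.05. Ldha encodes the lactate dehydrogenase subunit that favours lactate formation. It had 1327 and 1083 CPM in the shSet libraries, against 1904 and 1415 CPM in the shNC libraries (log2 fold change -0.46, SE 0.183, edgeR adjusted p = 0.183). Both shSet libraries were lower than both shNC libraries, but the shNC libraries differed from each other by more than the nearer shSet and shNC libraries did. Ldhb, the subunit that favours pyruvate, had 1 count in shSet library 1 and 0 elsewhere, which allows up to 3 counts in each of those libraries. Practically all lactate dehydrogenase RNA was therefore Ldha.

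Pdk1 encodes a kinase that shuts off pyruvate dehydrogenase and is a known HIF target. It had 74.6 and 54.2 CPM in the shSet libraries, against 84.0 and 94.6 CPM in the shNC libraries, with the groups apart and no call (log2 fold change -0.47, SE 0.173, edgeR adjusted p = 0.151). Slc16a1, the lactate carrier MCT1, had 212 and 258 CPM in shSet, against 233 and 195 CPM in shNC, an overlap of the groups. Slc16a3, the carrier MCT4 of highly glycolytic cells, was close to silent, at 9 and 11 counts in the shSet libraries, against 11 and 9 counts in the shNC libraries. No difference was detectable for it at this depth (95% interval of the fold change 0.471 to 2.16).

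Pfkfb3 and Pfkfb4 make fructose 2,6-bisphosphate, the activator of phosphofructokinase. Neither passed, in edgeR or DESeq2, and 0 had an unadjusted p under 0.05. Pfkfb3 had 18.1 and 22.9 CPM in the shSet libraries, against 24.8 and 16.1 CPM in the shNC libraries, with 1 library of each group high and 1 low (log2 fold change 0.00312, edgeR adjusted p = 0.995). Pfkfb4 was rarer, at 46 and 34 counts in the shSet libraries, against 64 and 59 counts in the shNC libraries, with the groups apart and no call (log2 fold change -0.61, edgeR adjusted p = 0.266).

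Among the hypoxia-response genes, 0 of 6 tested were higher and 1 was lower, with a median log2 fold change of -0.43. DESeq2 called 2 of them lower, Vegfa and Bnip3. Over all genes tested, edgeR called 4.2% higher and 1.76% lower, and DESeq2 called 2.46% lower. At an unadjusted p under 0.05 in edgeR, 3 of the 6 were lower and 0 higher, against 9.18% and 12.1% of all genes tested. Vegfa (chromosome 17, 46016993 to 46032369, minus strand), the main growth factor for blood vessels, had 27.9 and 17.3 CPM in the shSet libraries, against 40.6 and 48.8 CPM in the shNC libraries. All counts were whole. It averaged 22.6 ± 7.48 CPM in shSet cells and 44.7 ± 5.76 CPM in shNC cells (SD, n = 2 each), and the fitted change was 0.506-fold (95% interval 0.358 to 0.716) with log2 fold change -0.98, SE 0.223, edgeR adjusted p = 0.0333. Both shSet libraries were below both shNC libraries, and library 2 was the lower. Without shSet library 2 the adjusted p was 0.0676 at a log2 fold change of -0.68, and on log2(TPM + 1) in limma it was 0.0754 at -1.12.

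Bnip3, a mitochondrial protein of hypoxia-induced mitophagy, had 37.0 and 17.9 CPM in the shSet libraries, against 45.9 and 60.9 CPM in the shNC libraries. The groups were apart, the shSet libraries differed by more than the nearer shSet and shNC libraries did, and the change did not pass (log2 fold change -0.96, SE 0.291, edgeR adjusted p = 0.0924). It passed in DESeq2 (adjusted p = 0.0122). Egln3, a prolyl hydroxylase that marks HIF for destruction and is itself induced by HIF, had 29.9 and 23.2 CPM in shSet, against 41.2 and 32.3 CPM in shNC, again apart and without a call (log2 fold change -0.47, edgeR adjusted p = 0.192). Ankrd37, a hypoxia-induced ankyrin repeat protein, had 31 and 10 counts in the shSet libraries, against 23 and 31 counts in the shNC libraries, with shSet library 2 lowest and shSet library 1 level with shNC library 2.

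Ndrg1, a stress-responsive gene known to be induced by hypoxia, overlapped between groups. It had 176 and 109 CPM in shSet, against 151 and 111 CPM in shNC, where the highest and the lowest library were both shSet (log2 fold change 0.12, edgeR adjusted p = 0.805). Hif1a, which encodes the oxygen-regulated subunit of HIF-1, had 115 and 123 CPM in shSet, against 119 and 160.0 CPM in shNC (log2 fold change -0.23, edgeR adjusted p = 0.459). Its groups overlapped. The control of this subunit is known to act mostly on the protein, which RNA counts do not measure.

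Promoter sequence is shown for Vegfa, which was called lower, and for Pgk1, Ldha and Bnip3 as examples of genes that carry ACGTG. These 3 were picked with their values known from the members lower in both shSet libraries. Among those members Hk2, Aldoa, Aldoc and Egln3 carry it as well in the windows described below. Pfkl, Pfkp, Tpi1, Eno1, Pklr, Pdk1 and Pfkfb4, also lower in both, do not. Each is read from position -200 to -14 before the annotated start, from RefSeq on GRCm38.p6. Pgk1 is chrX:106186900-106187086, plus strand, Ldha chr7:46845604-46845790, plus strand, Bnip3 chr7:138909520-138909706, minus strand and Vegfa chr17:46032391-46032577, minus strand. Sequences run 5′ to 3′ on the gene's strand, and capitals mark ACGTG or its reverse complement CACGT, joined where they overlap as CACGTG, which is also the E-box of other factors. The other core, GCGTG, was not searched and is left unmarked where it occurs.
Pgk1: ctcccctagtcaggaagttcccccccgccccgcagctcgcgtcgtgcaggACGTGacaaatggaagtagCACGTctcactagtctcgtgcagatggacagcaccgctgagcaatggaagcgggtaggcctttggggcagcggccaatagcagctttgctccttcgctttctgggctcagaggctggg
Ldha: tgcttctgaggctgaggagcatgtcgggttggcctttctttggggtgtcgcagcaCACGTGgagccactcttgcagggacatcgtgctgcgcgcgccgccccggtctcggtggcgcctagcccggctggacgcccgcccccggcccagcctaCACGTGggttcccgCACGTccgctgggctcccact
Bnip3: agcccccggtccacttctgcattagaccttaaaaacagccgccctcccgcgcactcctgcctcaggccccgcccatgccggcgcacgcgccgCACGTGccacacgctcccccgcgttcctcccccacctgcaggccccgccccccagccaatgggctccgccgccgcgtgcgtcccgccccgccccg
Vegfa: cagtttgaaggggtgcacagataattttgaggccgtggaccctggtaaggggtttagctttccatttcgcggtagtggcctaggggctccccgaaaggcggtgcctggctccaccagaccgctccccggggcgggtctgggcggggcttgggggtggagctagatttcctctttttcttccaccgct
Pgk1 holds 2 separate matches, Ldha 2 CACGTG and 1 CACGT, Bnip3 1 CACGTG, and this Vegfa stretch none. Another annotated Vegfa start has 1 match, at -211, within bases annotated as exon (-250 to -33). Another annotated Ldha start has 0 matches in the 250 bases before it.

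Promoter windows of 300 bases, from 250 before to 50 after the start, were found for 30 of the 33 symbols and not for Slc2a3, Ca9 and Ndrg1. ACGTG on either strand stood in at least 1 window of 19 of these 30 genes (63.3%). The share was 21.8% over all 27025 genes with a window and 29.5% over the 9467 genes with a window that were also tested. By window it was 22 of 45 (48.9%), against 19.62% of all 32851 windows and 25.4% of the windows of tested genes. The letters stand in members lower in both shSet libraries, such as Hk2, Ldha, Bnip3 and Pgk1. Among members whose groups overlapped they stand in Slc2a1, Slc16a1, Hk1, Pfkm, Gapdh, Pgam1, Pkm, Slc16a3, Pfkfb3, Hif1a and Ankrd37. Gpi1 and Eno2, which overlapped too, lack them, as does Slc2a2. GCGTG was not counted in these shares. A match describes the letters and is no evidence of binding.

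**Figure D3:**
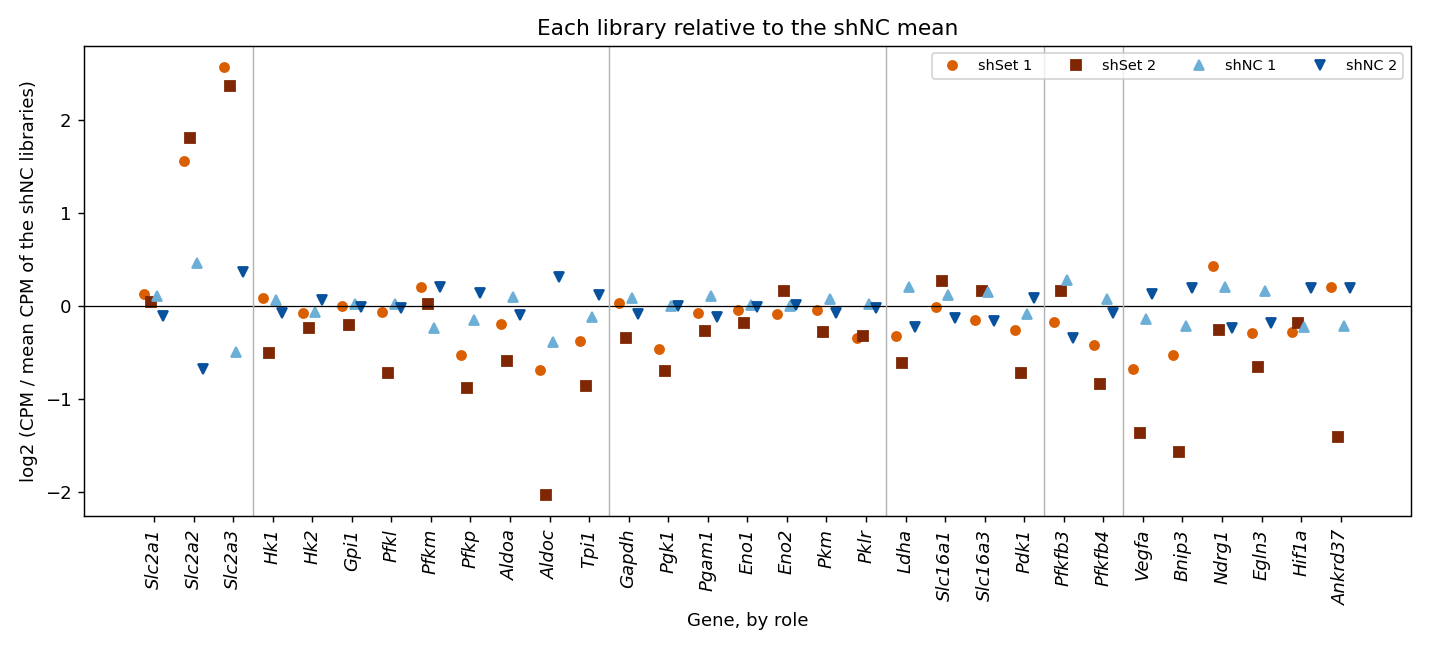
Log2 ratio of CPM to the mean CPM of the 2 shNC libraries (y) for each tested gene (x, grouped by role), with a separate marker for each library. Slc2a3 and Slc2a2 are high in both shSet libraries, and shSet library 2 lies below shSet library 1 in 24 of the 31 genes.

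Library by library, the shift was uneven. The median log2 ratio of the 31 members to the shNC mean was -0.090 in shSet library 1 and -0.33 in shSet library 2, against -0.012 and -0.0010 over all genes tested. shSet library 2 was below shSet library 1 in 24 of 31 members, a relation held by 50.1% of all genes tested. For the 6 tested hypoxia-response genes the medians were -0.29 and -1.015, against -0.18 and 0.16 in shNC libraries 1 and 2. For upper glycolysis they were -0.075 and -0.59, against -0.070 and 0.067 in shNC libraries 1 and 2. In upper glycolysis the median of shSet library 1 was thus level with that of shNC library 1. Vegfa stood at -0.68 in shSet library 1 and -1.37 in shSet library 2. Bnip3 stood at -0.53 in shSet library 1 and -1.58 in shSet library 2, and Aldoc at -0.69 in shSet library 1 and -2.03 in shSet library 2. Slc2a3 was high in both, at 2.57 in shSet library 1 and 2.36 in shSet library 2. Pklr was equally low in both, at -0.34 in shSet library 1 and -0.33 in shSet library 2.

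shSet library 1 was below both shNC libraries in 17 of the 31 members and library 2 in 22, patterns held by 35.8% and 37.4% of all genes tested. In 14 of the 31 both shSet libraries were below both shNC libraries with library 2 the lower, against 14.6% of all genes tested. shSet library 2 was also the library with the largest mitochondrial share of counts, 3.36%, and the part of this in the result was not tested. Refitted without shSet library 2, the members called were 1 higher, Slc2a3, and 0 lower (4.12% and 1.49% of 13189 genes tested). In that fit the median log2 fold change over all genes was -0.011, against -0.088 for the members. Without shSet library 1 they were 2 higher and 8 lower (4.44% and 3.42% of 13197 genes tested). Those 8 were Vegfa, Bnip3, Aldoc, Pfkl, Pfkp, Tpi1, Pgk1 and Pdk1, and Slc2a2 joined Slc2a3 among the higher. In these refits the group left with 1 library was assumed to vary like the other.

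Other fits differed in the members they called. DESeq2 called 1 member higher and 5 lower (4.53% and 2.46% of all genes), the 5 being Vegfa, Bnip3, Pgk1, Tpi1 and Pfkp. limma called 1 higher and 0 lower on log2(TPM + 1) (1.91% and 0.694% of all genes) and likewise on log2(TPM + 0.1) (1.89% and 0.663%). In each, 14 members had an unadjusted p under 0.05 in limma, as had 2508 and 2505 of all 12821 genes. Without shNC library 1, 2 members were higher and 6 lower (7.41% and 5.24%), the 6 being Vegfa, Bnip3, Aldoc, Pfkp, Tpi1 and Pgk1. Without shNC library 2, 1 was higher and 3 were lower (4.62% and 2.17%), the 3 being Vegfa, Pgk1 and Ldha. With the replicate number as a block, 1 was higher and 4 lower (4.56% and 2.17%), and with the numbers crossed, 2 and 11 (10.5% and 7.7%). With no filter on low counts 0 of 33 members and 0% of 21511 genes were called in edgeR. In that fit 8 members had an unadjusted p under 0.05, as had 3379 of the 21511 genes.

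**Figure D4:**
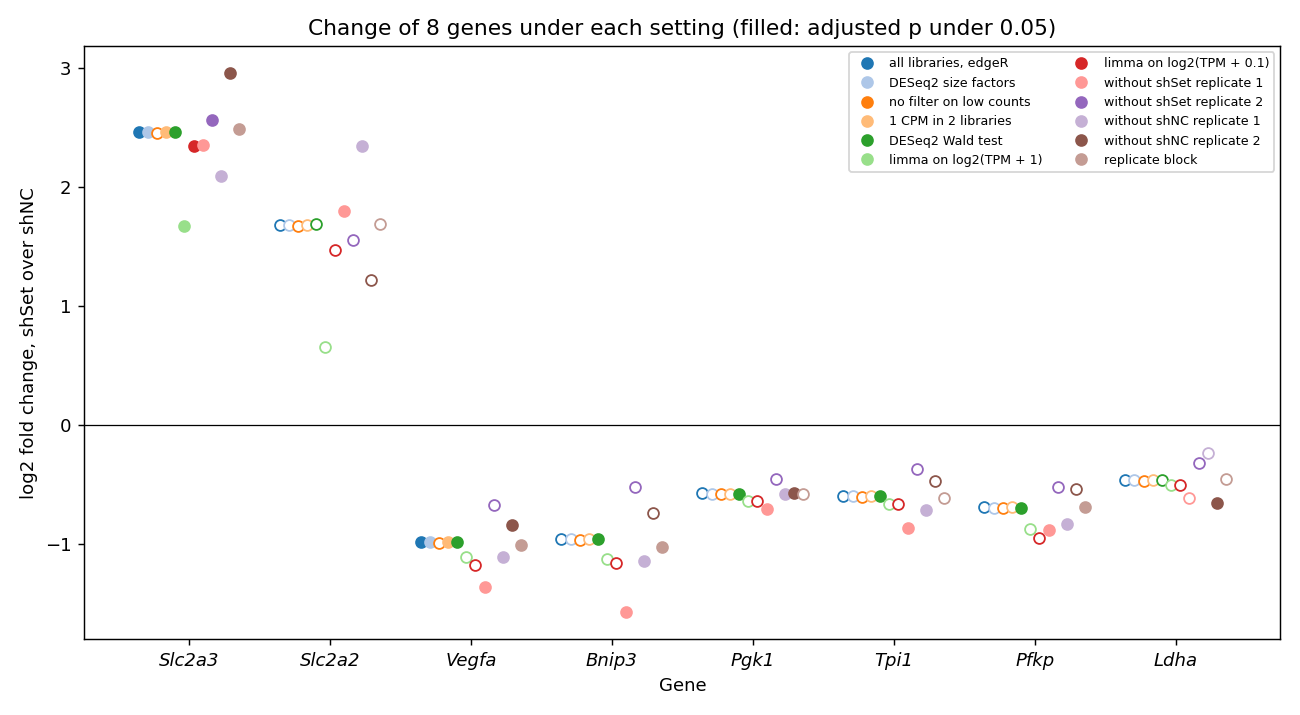
Log2 fold change of shSet over shNC (y) for 8 genes (x) in the edgeR fit of all libraries and under 11 other settings, in the order of the legend. Filled points had an adjusted p under 0.05. Slc2a3 is filled under every setting but the unfiltered fit, and Vegfa, Bnip3, Pgk1 and Tpi1 are lowest without shSet replicate 1.

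Steps with a dominant form kept it in all 4 libraries. Of pyruvate kinase TPM, Pkm gave 98.7% and 98.3% in the shSet libraries, against 98.3% and 97.6% in the shNC libraries. Aldoa gave 99.2% or more of aldolase TPM in every library. Hexokinase was divided between Hk1 and Hk2, with Hk2 at 40.3% and 46.0% in the shSet libraries, against 40.0% and 48.4% in the shNC libraries, so the groups overlapped. Within phosphofructokinase the share of Pfkp was 8.87% and 10.2% in the shSet libraries, against 13.1% and 14.9% in the shNC libraries, and that of Pfkm 23.1% and 28.8% in the shSet libraries, against 16.8% and 20.9% in the shNC libraries. The Pfkp share was thus lower and the Pfkm share higher in both shSet libraries, with Pfkl the main subunit throughout.

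Shares of pyruvate dehydrogenase kinase RNA were separated by group too. Pdk1 made up 87.3% and 84.7% in the shSet libraries, against 92.3% and 93.1% in the shNC libraries, and Pdk4, the form known from fasting, 8.20% and 10.4% in the shSet libraries, against 5.60% and 3.46% in the shNC libraries. The Pdk4 gene itself did not pass (log2 fold change 0.64, edgeR adjusted p = 0.228). Among the PFKFB genes the share of Pfkfb2, the heart form, was 29.0% and 30.4% in the shSet libraries, against 20.7% and 23.2% in the shNC libraries, while Pfkfb1, the liver form, overlapped between groups at 38.5% and 35.4% in the shSet libraries, against 32.8% and 47.3% in the shNC libraries. By expected counts the Pfkfb2 share was 29.5% and 31.4% in the shSet libraries, against 20.7% and 29.0% in the shNC libraries. The Pfkfb4 share of TPM was 5.94% and 3.88% in the shSet libraries, against 8.46% and 7.70% in the shNC libraries. These shares rest on 2 libraries a group and carry no test.

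**Figure D5:**
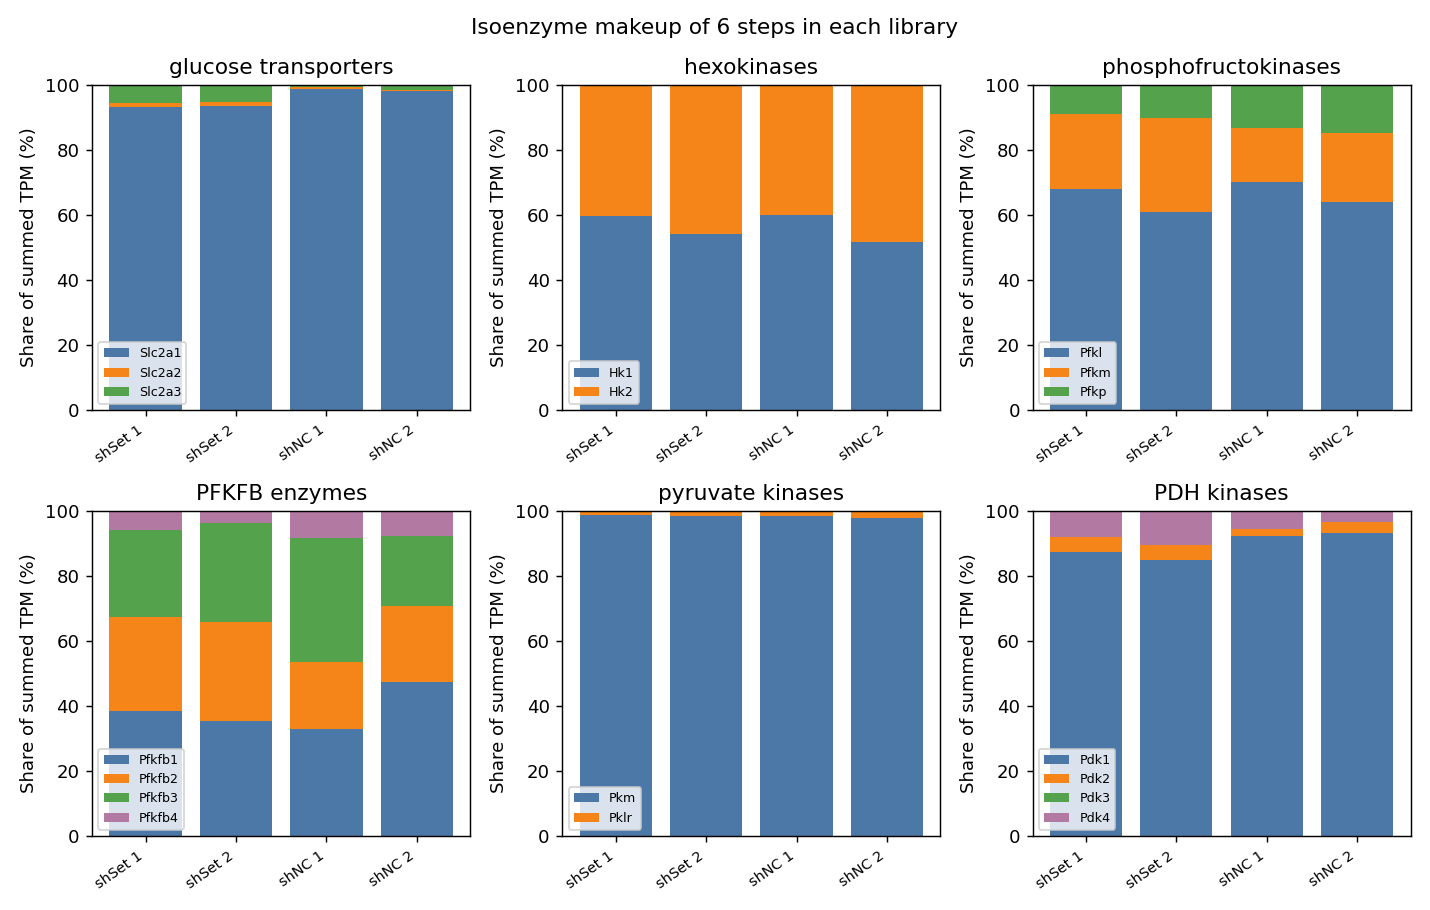
Share of the summed TPM of a step (y, percent) taken by each gene, stacked, in the 2 shSet libraries (left) and the 2 shNC libraries (right), for 6 steps. The Slc2a3 segment is 5.15% to 5.60% in shSet and 0.72% to 1.53% in shNC, and Pkm is 97.6% or more in every library.

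Genes around these pathways were counted from further lists. For comparison with each list, 4.2% of all genes tested were called higher and 1.76% lower in edgeR. At an unadjusted p under 0.05, 12.1% were higher and 9.18% lower. Of 21 other glycolytic isoenzymes and related enzymes, 14 were tested, 0 were higher and 1 was lower, with a median log2 fold change of 0.00479. The lower gene was Minpp1, an inositol polyphosphate phosphatase that can also act on 2,3-bisphosphoglycerate, at 63.2 and 69.5 CPM in shSet, against 101 and 98.0 CPM in shNC (log2 fold change -0.59, SE 0.134, edgeR adjusted p = 0.0347). Its adjusted p was 0.109 without shSet library 1 and 0.0548 on log2(TPM + 1).

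Of 18 other sugar and monocarboxylate transporters, 11 were tested, 2 were higher and 0 lower, with a median of 0.0786. Slc16a7, the high-affinity carrier MCT2, had 35 and 37 counts in the shSet libraries, against 11 and 5 counts in the shNC libraries (log2 fold change 2.16, SE 0.441, edgeR adjusted p = 0.0209). Slc16a10, a carrier of aromatic amino acids, had 90.7 and 71.5 CPM in the shSet libraries, against 43.0 and 45.2 CPM in the shNC libraries (log2 fold change 0.88, SE 0.158, edgeR adjusted p = 0.0116). In both genes the shSet libraries were above both shNC libraries. Slc16a7 did not pass in DESeq2 (adjusted p = 0.0533), nor Slc16a10 in limma on log2(TPM + 1) (adjusted p = 0.115).

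Of 11 genes of pyruvate dehydrogenase and its regulators, 10 were tested and 0 passed in either direction in edgeR, 2 of them with an unadjusted p under 0.05. DESeq2 called 0 of them, and the median was 0.17. Of 10 pentose phosphate genes, 9 were tested, 0 were higher and 1 was lower, at a median of -0.18. That gene was Taldo1, the transaldolase of the non-oxidative branch, with 189 and 178 CPM in the shSet libraries, against 272 and 273 CPM in the shNC libraries (log2 fold change -0.57, SE 0.127, edgeR adjusted p = 0.0307). Taldo1 did not pass without shSet library 2 (adjusted p = 0.117).

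Of 16 HIF subunits, hydroxylases and regulators, 14 were tested, 0 were higher and 1 was lower, with a median of -0.0357. It was Cited2, a HIF-induced protein that competes with HIF for the coactivators p300 and CBP, with 144 and 192 CPM in the shSet libraries, against 275 and 248.8 CPM in the shNC libraries (log2 fold change -0.64, SE 0.160, edgeR adjusted p = 0.0473). Its adjusted p was 0.168 without shSet library 1 and 0.0776 on log2(TPM + 1).

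Of 37 other hypoxia-response genes, 30 were tested, 2 were higher and 1 was lower, with a median of -0.20 and 22 of 30 below 0. Among all genes tested, 4.2% were called higher, 1.76% were called lower and 50.5% lay below 0. At an unadjusted p under 0.05 in edgeR, 9 of the 30 were lower and 2 higher, against 9.18% and 12.1% of all genes tested. DESeq2 called 3 of the 30 lower and 2 higher, against 2.46% and 4.53% of all genes tested. The histone demethylase Kdm3a, a known HIF target, had 30.2 and 28.4 CPM in the shSet libraries, against 43.1 and 53.5 CPM in the shNC libraries (log2 fold change -0.72, SE 0.163, edgeR adjusted p = 0.0325). Both shSet libraries were lower. Kdm3a did not pass without shSet library 2 (adjusted p = 0.0629), without shNC library 2 (adjusted p = 0.0827) or on log2(TPM + 1) (adjusted p = 0.0881).

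Loxl2, a lysyl oxidase of the extracellular matrix, was called higher. It had 4.80 and 2.48 CPM in the shSet libraries, against 0.308 and 0.353 CPM in the shNC libraries (log2 fold change 3.43, SE 0.501, edgeR adjusted p = 0.00462), from 6 and 7.46 counts in the shNC libraries. The shSet libraries lay above both shNC libraries, and Loxl2 did not pass in limma on log2(TPM + 1) (adjusted p = 0.0896). Car9, a carbonic anhydrase regarded as a strict HIF target, had 1 and 1 counts in the shSet libraries, against 5 and 4 counts in the shNC libraries, too few to test.

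Loci named by genome position rather than as genes were also listed in the files. Within 10000 bases of the members there were 2 of these, near Pfkfb3 and Pfkfb4, and both were at 0 counts in all 4 libraries.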

How the data were processed

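Directional libraries were prepared from total RNA with a NEBNext Ultra kit, per the labels' protocols. The submitters' processing notes list STAR, RSEM, FastQC and DESeq2, with GRCm38 and mm10 as builds, but no version or role of each. The sources used here do not give the strand setting or annotation release. The deposited expected counts are RSEM estimates per gene, per the file headers, in which reads that match several features are divided. The deposited TPM values are scaled by RSEM for effective length to 1000000 per library, per the file headers. The deposited FPKM values were not used. Deposited length columns, another kind of value, served only for checks.

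Expected counts were rounded. Library totals summed all 115821 entries, of which 60983 are loci named by position with 0.355% to 0.417% of the counts. Group was the only term of the edgeR 4.0.16 quasi-likelihood fit (TMM, filterByExpr), and p-values were adjusted by Benjamini-Hochberg over 12821 genes with a threshold of 0.05. The SE came from the F statistic. The fit was run on counts simulated independently from its own estimate of spread, which cannot vouch for it on these libraries. Alternatives were DESeq2 1.42.0 and its size factors, other filters, limma 3.58.1 on log2 values of the deposited TPM, each library left out, and the replicate number as a block. Coordinates are GENCODE M21 (GRCm38), matched with version for 32 of 33 member entries. Named genes were Setdb1, the members and the called genes of the further lists, besides cell type markers picked after their values were seen, and of the called genes 1 is not reported here. Car9 and the isoenzymes Pdk4, Pfkfb1 and Pfkfb2 were added after their values were seen. Members and lists were chosen with earlier results of these data known.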

Additional observations from a re-analysis of the deposited data

How the results depend on the processing

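The 12 alternatives include the block with the replicate numbers crossed, which was chosen after seeing the data and in which Slc2a3 and Vegfa passed. Slc2a3 passed with a positive sign under 11 of 12 alternatives, failing without a filter on low counts (log2 fold change 2.45, adjusted p = 0.133), and Vegfa passed under 8 of 12. Without that filter 0 members and 0 genes were called in either direction in edgeR (3379 of 21511 genes at an unadjusted p under 0.05), and the cause was not tested. Over all genes, limma called 245 higher and 89 lower on log2(TPM + 1), and 242 and 85 on log2(TPM + 0.1), in both cases with 0 members lower. DESeq2 called 5 members lower (Vegfa, Bnip3, Pgk1, Tpi1 and Pfkp). Leaving out each library gave 543 to 982 genes higher and 197 to 695 lower, 1 to 2 members higher and 0 to 8 lower, and a median member change of -0.33 to -0.088 on the log2 scale. The count of genes lower was 451 without shSet library 1, and without shNC library 1 the counts were 982 higher and 695 lower. Members called lower were 6 without shNC library 1 and 3 without shNC library 2.

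The labels do not say that the replicate numbers pair the libraries, and with 2 numbers this could not be settled (correlation of same-numbered deviations -0.22 over all genes tested and -0.44 over the members). With the replicate number as a block 584 genes were higher and 278 lower, with 1 member higher and 4 lower, Vegfa, Bnip3 (adjusted p = 0.0105), Aldoc (log2 fold change -1.24, adjusted p = 0.0345) and Pfkp (adjusted p = 0.0477). With the numbers crossed, chosen after seeing the data, 1352 genes were higher and 987 lower, with 2 and 11 members.

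Some members changed sign, without being called in these fits. Pfkfb3 was -0.00043 with DESeq2's size factors, -0.0064 without a filter, -0.000795 with a filter of 1 CPM in 2 libraries, -0.00057 in DESeq2, and -0.058 and -0.064 on log2(TPM + 1) and log2(TPM + 0.1). Eno2 was -0.14 and -0.18 on the same scales. Leaving out each library gave log2 ranges of -0.28 to 0.35 for Pfkfb3, -0.088 to 0.16 for Eno2, -0.26 to 0.43 for Ndrg1, -0.14 to 0.17 for Slc16a3, -0.024 to 0.20 for Slc2a1, -0.014 to 0.27 for Slc16a1, -0.10 to 0.35 for Pfkm, -0.21 to 0.0065 for Gpi1, -0.51 to 0.088 for Hk1, -1.40 to 0.21 for Ankrd37 and -0.35 to 0.033 for Gapdh.

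Counted as shares of expected counts instead of TPM, the difference of shSet minus shNC was 5.28 percentage points for Slc2a3 (4.25 by TPM), -2.95 for Pfkp (-4.48 by TPM), -5.37 for Pdk1 (-6.74 by TPM), 0.598 for Slc16a7 (1.17 by TPM) and 0.868 for Hk2 (-1.02 by TPM). Genes with few counts, such as Slc2a2, Slc16a3, Ankrd37 and Pfkfb4, are limited by depth.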
